A study of Mus musculus with 2 samples.

Results

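The genes described here serve the unfolded protein response and the integrated stress response, and they were measured in the liver of mice with and without Iah1. A list of 48 gene symbols chose them, made up of chaperones and other folding genes of the endoplasmic reticulum (ER), the stress sensors of that compartment, genes of ER-associated degradation, and targets of the transcription factor ATF4. Of the 48 symbols, 46 had an array probe set that names that gene and no other, out of 22180 genes measured in all. Ero1l and Ero1lb were found under their newer symbols Ero1a and Ero1b. The probe sets of Pdia4 and Aars name a second gene as well, and these genes were not analysed here.

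Each genotype was represented by 1 Affymetrix array that carried liver RNA pooled from 3 male mice, either wild type (Iah1-WT, called WT below) or lacking Iah1 throughout the body (Iah1-KO, called KO). Mice of both genotypes ate chow up to 6 weeks of age and a high-fat diet for the next 12 weeks, were housed singly, and had no food for the last 4 hours. The labels name no strain, and no chow-fed liver was analysed here. Every value is thus a single measurement of a pool, without replicate error, and no test of genotype was possible. Iah1 itself, which encodes an esterase, read 8.59 on the WT array and 3.90 on the KO array on the log2 scale, at least 15.1-fold lower against the intensity filter set out below.

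Secreted and membrane proteins fold in the ER, and a hepatocyte exports large amounts of plasma protein through it. When unfolded protein builds up there, the sensors IRE1 (gene Ern1), PERK (Eif2ak3) and ATF6 (Atf6) start the unfolded protein response. IRE1 splices the Xbp1 messenger into its active form, ATF6 is cut into a transcription factor, and together they raise chaperones and degradation genes. PERK phosphorylates the translation factor eIF2alpha, as do kinases that sense amino acid shortage, double-stranded RNA or lack of haem. This common route, the integrated stress response, slows translation in general and favours that of ATF4, which switches on amino acid and stress genes.

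The groups of genes differ in the control elements that these factors are known to bind, so the promoters were read for 3 motifs on both strands. The windows are those of RefSeq on the mouse assembly GRCm38.p6 and run from 250 bases before to 50 bases after each gene's start. They were found for 42 of the 48 members, in 44 windows. The ER stress response element (ERSE) reads CCAAT, any 9 bases, then CCACG. It stood in 10 of the 44 member windows and in 0.119% of all 32851 windows. The shorter ERSE-II reads ATTGG, any base, then CCACG. It stood in 2 member windows and in 0.0365% of all windows. The composite C/EBP and ATF element (CARE), searched as TGATGNAA, stood in 6 member windows and in 3.97% of all. No match overlapped a match of another motif.

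All 10 genes with an ERSE and both genes with an ERSE-II belonged to ER folding and degradation. They were Hspa5, Hsp90b1, Calr, Canx, Dnajc3, Creld2, Pdia6, Ero1lb, Syvn1 and Derl3 for ERSE and Herpud1 and Dnajb11 for ERSE-II. Those shown here are Hspa5, as the gene most used to follow the response, Hsp90b1, which has a pair of elements, Syvn1 and Ero1lb, which had the highest and the lowest KO minus WT difference among the ERSE genes, and Herpud1 with an ERSE-II. The element is in capitals, and it lies on the opposite strand in Ero1lb and in the second sequence of Hsp90b1. It starts 65 bases before the gene in Hspa5, 44 in Syvn1, 201 in Ero1lb, 52 in Herpud1, and 212 and 107 in Hsp90b1.
Hspa5 (chr2:34772005-34772063, plus strand): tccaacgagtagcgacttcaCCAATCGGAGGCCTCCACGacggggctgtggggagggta
Hsp90b1 (chr10:86705618-86705676, minus strand): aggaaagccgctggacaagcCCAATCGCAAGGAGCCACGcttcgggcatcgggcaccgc
Hsp90b1 (chr10:86705513-86705571, minus strand): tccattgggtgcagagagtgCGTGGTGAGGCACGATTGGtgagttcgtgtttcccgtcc
Syvn1 (chr19:6046512-6046570, plus strand): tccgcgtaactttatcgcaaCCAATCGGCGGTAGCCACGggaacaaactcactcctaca
Ero1lb (chr13:12565662-12565720, plus strand): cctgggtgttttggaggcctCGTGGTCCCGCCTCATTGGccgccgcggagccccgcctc
Herpud1 (chr8:94386357-94386407, plus strand): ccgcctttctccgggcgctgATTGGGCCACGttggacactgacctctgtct

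CARE stood in 5 genes of the ATF4 group, Asns, Nupr1, Chac1, Trib3 and Aars, and in Herpud1. The sequences below are those of the 5 measured genes, with CARE in capitals, and they are shown because these genes lay on both sides of 0. In Asns it reads as written, 23 bases before the start. In the others it lies on the opposite strand, 110 bases before the start in Nupr1, 193 in Chac1 and 112 in Herpud1, and from base 15 after it in Trib3. These matches describe letters in reference windows and show neither binding nor use of a start site in these livers.
Asns (chr6:7693205-7693252, minus strand): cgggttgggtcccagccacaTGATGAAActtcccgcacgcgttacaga
Nupr1 (chr7:126625553-126625600, minus strand): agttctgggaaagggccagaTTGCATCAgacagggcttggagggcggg
Chac1 (chr2:119351029-119351076, plus strand): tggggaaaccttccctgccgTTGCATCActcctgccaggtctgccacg
Trib3 (chr2:152344019-152344066, minus strand): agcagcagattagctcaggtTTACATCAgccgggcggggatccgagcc
Herpud1 (chr8:94386297-94386344, plus strand): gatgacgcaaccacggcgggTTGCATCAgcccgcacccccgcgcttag

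The members were compared as KO minus WT on the log2 scale, for genes whose higher array reached 4.68, the median of that value over all genes. Of the 46 measured members, 43 passed this intensity filter, as did 11090 genes in all. No member that passed differed by 1.5-fold (0.58 on the log2 scale) in either direction. Over all genes compared, 1.47% were higher and 2.45% were lower in KO by that much. A smaller difference of at least 0.3 was seen for 5 of the 43 members and for 19.3% of all genes. For Asns and Phgdh among the 5, an array lay under the filter, so they passed only through the array where they are high. With every value under the filter set to the filter, 3 of the 43 members and 16.1% of all genes reached 0.3. In direction, 24 of the 43 members lay above 0 and 19 below, against 44.3% of all genes above and 55.7% below. The members had a median difference of 0.02 and all genes one of -0.02. A rough yardstick came from the 604 genes with several probe sets, whose KO minus WT differences disagreed within a gene with a standard deviation of 0.27. Of the 43 members, 6 differed by more than that. The share of all genes beyond 0.27 was not counted, but it was at least the 19.3% that reached 0.3. The 6 members are thus not read as a result about the list. Asns and Phgdh are among the 6, and with values under the filter set to the filter they were at 0.067 and -0.25. This disagreement of probe sets leaves out the spread of mice, labelling and hybridisation. It also pools bright and dim genes. The differences of all genes had a standard deviation of 0.36 in the dimmest quartile of signal and 0.16 in the brightest.

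**Figure D1:**
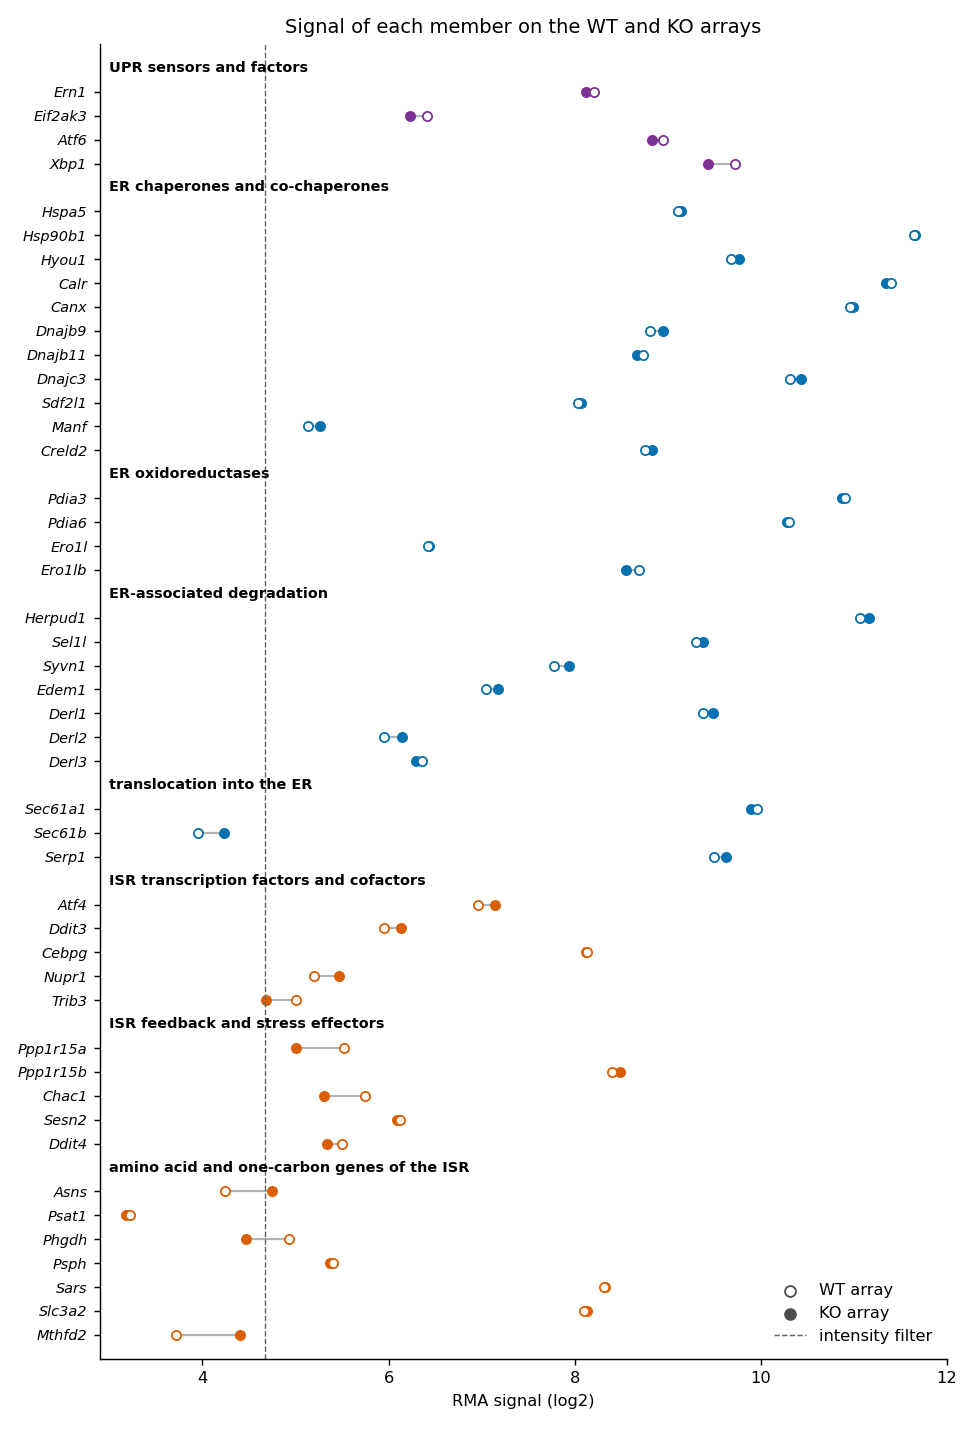
RMA signal on the log2 scale for each of the 46 measured members, grouped by role, with open circles for the WT array and filled circles for the KO array and a dashed line at the intensity filter of 4.68. Signal depends on the probes, so circles are to be compared within a row and not between rows; the widest gaps are in the ATF4 group, and Sec61b, Psat1 and Mthfd2 lie left of the filter on both arrays.

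The sensors and the factor Xbp1 were all lower on the KO array, by small amounts. Xbp1 read 9.72 in WT and 9.43 in KO (-0.29, 1.23-fold lower). It was the sensor gene furthest from 0, and 4.04% of the genes in the same quartile of signal were lower still. The array values do not separate the spliced from the unspliced Xbp1 messenger. Eif2ak3, which encodes the PERK kinase, read 6.41 in WT and 6.23 in KO (-0.18). Atf6 read 8.94 and 8.83 (-0.12), and Ern1, which encodes the IRE1 kinase and nuclease, read 8.21 and 8.12 (-0.09). The median of these 4 genes was -0.15. Their direction was that of the 55.7% of all genes that lay below 0, and only Xbp1 passed the probe set disagreement of 0.27. Xbp1, Atf6 and Ern1 were in the brightest quartile of signal, where the differences of all genes had a standard deviation of 0.16.

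The ER-folding genes stayed close to equal on the arrays. They comprise chaperones, oxidoreductases, degradation genes and translocation genes, and 24 of the 25 measured passed the filter. Their differences ran from -0.15 to 0.20, with a median of 0.05, and 17 of 24 lay above 0, beside 44.3% of all genes. Derl2 and Edem1 are among the 17 and lay below 0 with their brightest probe set alone. Every difference was smaller than the probe set disagreement of 0.27, but that yardstick pools bright and dim genes and is wide for these. Of the 24, 19 were in the brightest quartile, where large differences were rare. There, 5.34% of all genes reached 0.3, and the standard deviation was 0.16.

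Among chaperones, Hspa5, which encodes the ER Hsp70 known as BiP, read 9.11 in WT and 9.14 in KO (0.03). Hsp90b1, the Hsp90 of the ER, read 11.65 and 11.66 (0.01). Both signals were thus near-equal for the main chaperones of the compartment. The lectin chaperone genes Calr, at 11.40 in WT and 11.34 in KO (-0.05), and Canx, at 10.96 and 10.98 (0.03), were likewise close. Hyou1, an Hsp110-type partner of BiP, read 9.68 and 9.76 (0.08).

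The co-chaperones gave the chaperone group its largest differences, and these were still small. Dnajb9, a J-domain protein that holds IRE1 in check, was the highest, at 8.81 in WT and 8.95 in KO (0.15). The next were Manf, a secreted BiP cofactor, at 5.13 and 5.26 (0.13), and Dnajc3, a J-domain protein known as an inhibitor of PERK, at 10.32 and 10.43 (0.12). Dnajb11, the J-domain protein that hands clients to BiP, was on the other side, at 8.73 and 8.67 (-0.07). Creld2, a secreted protein of the ER known as a stress target, was at 8.76 and 8.83 (0.07), and Sdf2l1, a partner of the J-domain proteins, was at 8.03 and 8.07 (0.04). In all, 9 of the 11 chaperone genes lay above 0, beside 44.3% of all genes, with a median of 0.04.

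The oxidoreductases form and reshuffle disulfide bonds. Pdia3, which works with the lectin chaperones, read 10.90 in WT and 10.88 in KO (-0.03), and Pdia6 read 10.30 and 10.28 (-0.02). Ero1l and Ero1lb encode the oxidases that recharge them. Ero1lb read 8.70 and 8.55 (-0.15), the lowest value of the ER-folding genes. Ero1l averaged 6.42 and 6.43 (0.02), but its probe sets disagreed, at -0.13 and 0.16. In all, 1 of 4 lay above 0 and the median was -0.02, although 2 of 4 did once the median difference of all genes was subtracted.

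ER-associated degradation sends misfolded protein back to the cytosol for destruction. Its genes had a median of 0.11, with 6 of 7 above 0, beside 44.3% of all genes. Syvn1, the ubiquitin ligase HRD1, read 7.78 in WT and 7.94 in KO (0.17). Sel1l, its partner in the membrane, read 9.30 and 9.37 (0.07), and Herpud1, a scaffold of the same complex, read 11.07 and 11.16 (0.09). Among the derlins, which take part in moving the substrate across the membrane, Derl1 was at 9.38 and 9.49 (0.11), Derl2 at 5.95 and 6.15 (0.20) and Derl3 at 6.36 and 6.29 (-0.07). Edem1, which helps to pick out trimmed glycoproteins, was at 7.05 and 7.18 (0.12).

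The values of Derl2 and Edem1 rested on a dim probe set. In Derl2 the brighter probe set gave 7.37 in WT and 7.36 in KO (-0.01), and the dimmer gave 4.52 and 4.94 (0.41). In Edem1 the brighter gave 9.65 and 9.52 (-0.13), and the dimmer gave 4.45 and 4.83 (0.37). When each gene was represented by its brightest probe set alone, 4 of the 7 degradation genes lay above 0, with a median of 0.07.

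Of the translocation genes, Serp1, which stabilises proteins at the translocon, read 9.49 in WT and 9.62 in KO (0.13), and Sec61a1, the pore subunit, read 9.96 and 9.90 (-0.06). Sec61b, a small subunit of the same channel, was below the filter on both arrays at 3.96 and 4.23.

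**Figure D2:**
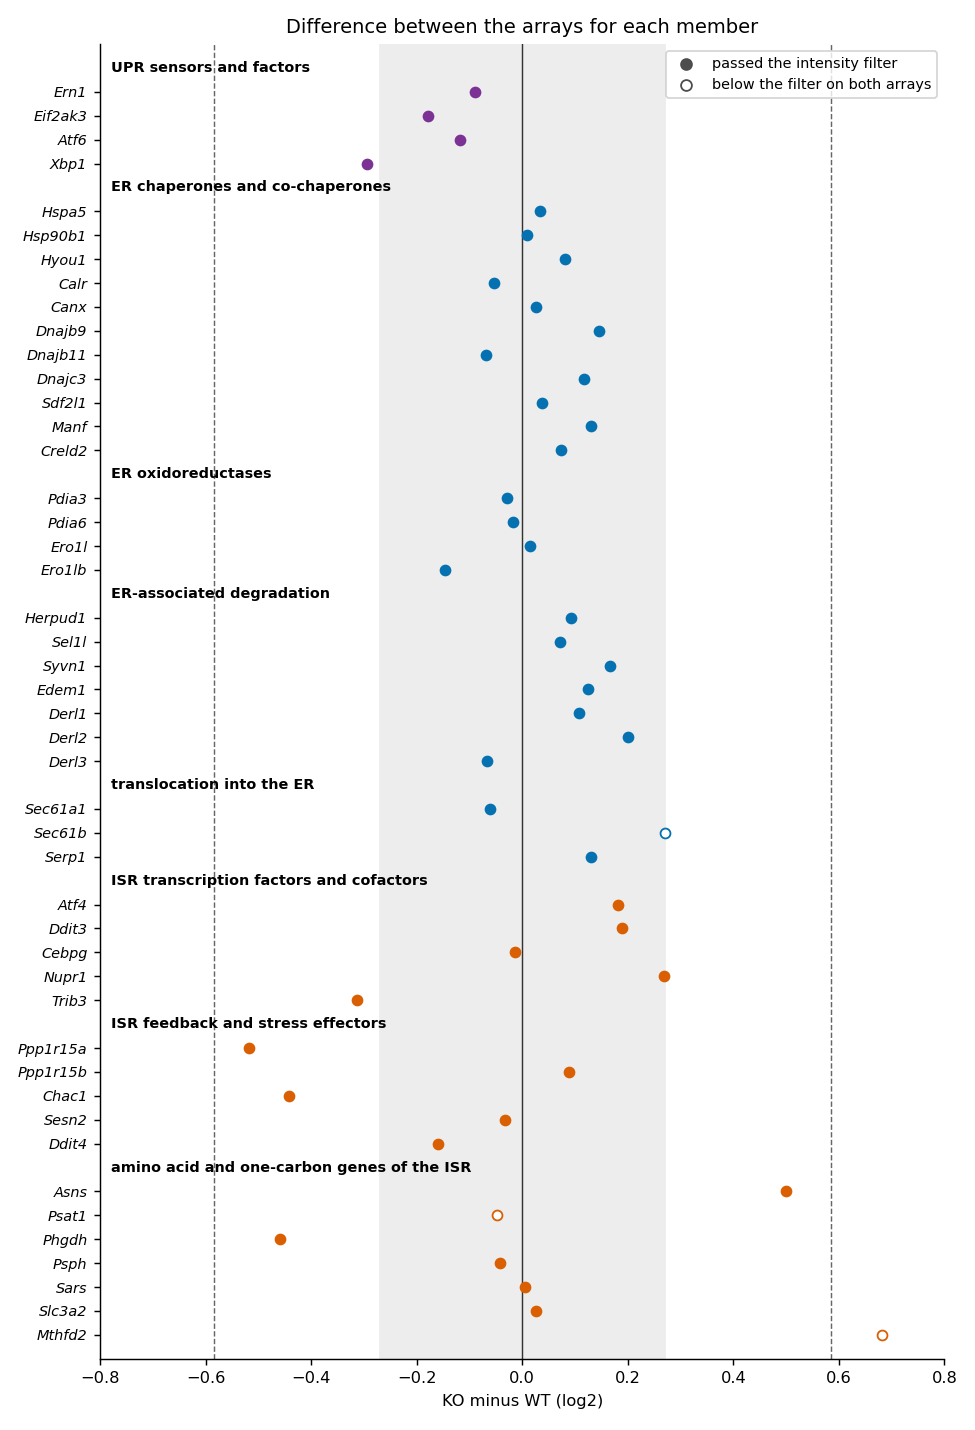
KO minus WT difference on the log2 scale for each measured member, grouped by role, with filled circles for genes that passed the intensity filter and open circles for genes below it on both arrays. The grey band marks the probe set disagreement of 0.27 on either side of 0, pooled over bright and dim genes, and the dashed lines mark 1.5-fold. All ER-folding genes that passed lie in the band. The ATF4 group spreads more widely, with Asns at 0.50 and Phgdh at -0.46 each measured against an array under the filter.

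The ATF4 genes differed from each other more than the ER-folding genes did. Of the 17 measured, 15 passed the filter, 7 lay above 0 and 8 below, and the median was -0.01, a sign that turned under each of 3 other scalings (0.011 to 0.020). With values under the filter set to the filter, which bounds Asns and Phgdh, their differences ran from -0.52 (Ppp1r15a) to 0.27 (Nupr1) with a standard deviation of 0.23, against 0.09 for the ER-folding genes. The RMA values as deposited gave 0.29. The 3 members that reached 0.3 with those bounds, Ppp1r15a, Chac1 and Trib3, were in this group and lower in KO.

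Genes for transcription factors and their partners went both ways. Atf4 read 6.96 in WT and 7.14 in KO (0.18), and Ddit3, which encodes the death-linked factor CHOP, read 5.95 and 6.14 (0.19). ATF4 is controlled mainly at translation, which an RNA array does not see. Nupr1, a small stress coregulator, read 5.20 and 5.46 (0.27). Trib3, a pseudokinase induced by ATF4 and CHOP that feeds back on both, was lower, at 5.0 in WT and 4.69 in KO (-0.31, 1.24-fold). Cebpg, a partner of ATF4 on DNA, was at 8.14 and 8.12 (-0.01).

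Among feedback genes and stress effectors, 4 of 5 lay below 0, with a median of -0.16, and 3 of 5 did after a loess fit or a second quantile normalization, beside 55.7% of all genes. Ppp1r15a, the inducible subunit (GADD34) of the phosphatase that restores eIF2alpha, was the lowest of all members, at 5.52 in WT and 5.005 in KO (-0.52, 1.43-fold). Of all genes compared, 3.53% were lower still, and of those in its own quartile of signal 7.36%. Chac1, an enzyme that degrades glutathione, was at 5.74 and 5.30 (-0.44, 1.36-fold), with 6.67% of its quartile lower still. Ddit4, an inhibitor of mTORC1, was at 5.50 and 5.34 (-0.16), and Sesn2, another, was at 6.13 and 6.09 (-0.03). Ppp1r15b, the constitutive counterpart of Ppp1r15a, was at 8.40 and 8.49 (0.09). The inducible and the constitutive subunit were on opposite sides of 0, but the difference of Ppp1r15b was smaller than the probe set disagreement of 0.27. It was also smaller than the standard deviation of 0.16 among all genes in its quartile of signal, the brightest.

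Genes of amino acid supply were dim apart from Sars and Slc3a2, and their widest differences among genes that passed rest on an array under the filter. Asns, asparagine synthetase, read 4.24 in WT and 4.74 in KO (0.50). Its WT value lay under the filter, and against the filter the KO array was at least 1.05-fold higher. Phgdh, which starts serine synthesis, read 4.93 in WT and 4.47 in KO (-0.46), and against the filter the KO array was at least 1.19-fold lower. A bound against the filter applies to the RMA values and carries no measurement error.

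The rest of the serine route did not share the direction of Phgdh by more than a few hundredths. Psph, its last step, was at 5.41 in WT and 5.37 in KO (-0.04), and Psat1, the middle step, was below the filter on both arrays at 3.23 and 3.18. Sars, the seryl-tRNA synthetase, was at 8.32 on each array (0.01), and Slc3a2, the heavy chain of several amino acid transporters, was at 8.10 and 8.13 (0.03). Mthfd2, a mitochondrial folate enzyme, was below the filter on both arrays too, at 3.72 in WT and 4.40 in KO, and no difference is drawn from it.

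The spread of the ATF4 genes has to be set beside their signal. When all genes compared were parted into 4 equal groups by mean signal, their differences had a standard deviation of 0.36 in the dimmest group, then 0.28 and 0.20, and 0.16 in the brightest. Of the 15 ATF4 genes, 6 were in the dimmest group and 4 in the brightest, while 19 of the 24 ER-folding genes were in the brightest. With values under the filter set to the filter, a difference of at least 0.3 was seen for 2 of the 6 ATF4 genes in the dimmest group, where 24.4% of all genes had one, and for 1 of 4 in the next, where 23.0% had one. None of the 5 ATF4 genes in the upper groups reached it, where 11.8% and 5.34% did. The part of signal in the spread of this group was not tested beyond these values.

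**Figure D3:**
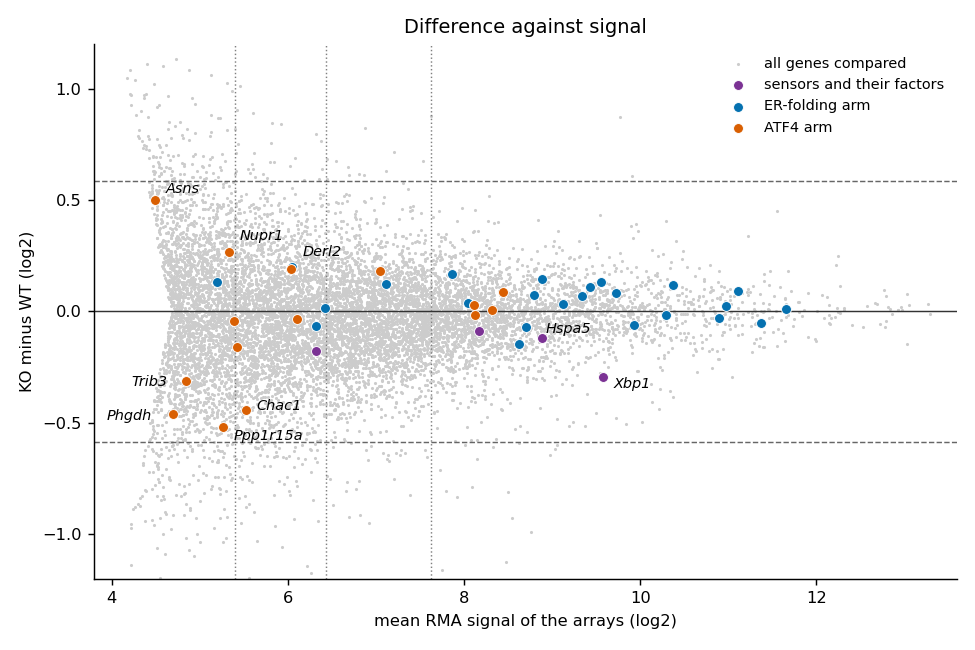
KO minus WT difference against the mean RMA signal of the arrays, both on the log2 scale, for all genes compared (grey) and for the members that passed the filter (colours); dotted lines part the 4 signal groups, dashed lines mark 1.5-fold, and 21 genes beyond 1.2 on either side are not drawn. The grey cloud narrows to the right, and the 5 members beyond 0.3, among them Asns and Phgdh with an array under the filter, are in its wide left part, while Xbp1 at -0.29 is near the lower edge of its narrow part.

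Any of the 3 promoter elements was found in 17 members, so most members carry none of them in these windows. The 12 genes with an ERSE or ERSE-II all passed the filter and differed by -0.15 to 0.17, with 7 above 0, 5 below and a median of 0.02. The 5 measured genes with CARE had 3 above 0 and 2 below, and ran from -0.44 to 0.27 with the WT value of Asns set to the filter. Nupr1 was on the high side at 0.27, as was Asns by the bound of at least 1.05-fold, and Chac1 and Trib3 on the low side, at -0.44 and -0.31, although all 4 carry the element. Herpud1, which has an ERSE-II and a CARE, was at 0.09. This grouping was made after the values were seen and is a description.

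Other genes of the same pathways, taken from 8 lists, gave the members a wider setting. The other eIF2alpha kinases and the subunits of eIF2 and its exchange factor eIF2B were mostly lower in KO, with 7 of 9 below 0 and a median of -0.16. Eif2ak4, which encodes the amino acid sensor GCN2, read 5.340 in WT and 5.002 in KO (-0.34), and Eif2b4, an eIF2B subunit, read 5.77 and 5.47 (-0.30). None was past 1.5-fold, 1 of 9 differed by at least 0.3, and 55.7% of all genes lay below 0. Eif2b2 and Eif2b3, further eIF2B subunits, lay just above 0 at 0.04 and 0.02.

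Other ATF4 targets again went both ways, with 12 of 18 measured above the filter, 5 above 0, 7 below and a median of -0.05. Fgf21, a hormone of the fasting and stressed liver, read 4.70 in WT and 5.35 in KO (0.65), past 1.5-fold with WT just above the filter. It was in the dimmest quartile of signal, where 121 of 2773 genes were higher in KO by that much. Mthfd1l, a mitochondrial folate enzyme, read 5.19 and 4.59 (-0.60), with KO under the filter and at least 1.43-fold lower against it. Vldlr, a lipoprotein receptor, read 5.71 and 5.14 (-0.57). The 6 targets below the filter on both arrays included the cystine transporter gene Slc7a11 and the amino acid transporter genes Slc7a1, Slc7a5 and Slc1a5.

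Other aminoacyl-tRNA synthetases were centred on 0, with a median of 0.01 over 17 genes. Cars, the cysteinyl enzyme, stood off from the rest at 6.36 in WT and 5.84 in KO (-0.52), and Farsa, a phenylalanyl subunit, was next at 5.46 and 5.25 (-0.22). Of the other factors of the unfolded protein response, Creb3l1, a membrane-bound relative of ATF6, was at 4.58 and 5.24 (0.66), with WT under the filter and at least 1.48-fold higher against it. Atf6b, the closest relative of Atf6, was lower at 6.28 and 5.90 (-0.38). Creb3l3, the liver member of this family known as CREBH, was at 9.53 and 9.32 (-0.21). The 9 genes of this list that passed had a median of -0.03.

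The 3 remaining ER lists and a list of heat shock genes had medians near 0, with wider spreads than the ER-folding members. Their standard deviations were 0.12, 0.16, 0.16 and 0.20 in the order given here. In the same order, 16 of 22, 11 of 17, 10 of 19 and 6 of 12 genes were in the brightest quartile of signal. Of the ER-folding members, 19 of 24 were there, and the part of signal in these spreads was not tested. Other folding and glycan enzymes had a median of 0.00 (0.0021) over 22 genes, with Ddost, a subunit of the oligosaccharyltransferase, at 9.52 in WT and 9.77 in KO (0.24) and the retrieval receptor gene Kdelr1 at 6.36 and 6.16 (-0.20). Other degradation genes had a median of 0.01 over 17, with Ube2j1, a ubiquitin-conjugating enzyme of the ER membrane, at 7.74 and 7.32 (-0.43) and Vimp, now named Selenos, at 5.10 and 5.41 (0.32). Translocon, signal recognition and signal peptidase genes had a median of 0.02 over 19, with Srp19 at 6.24 and 6.69 (0.45) and Spcs2 at 6.85 and 7.10 (0.24). Heat shock genes of the cytosol and mitochondria, which answer to other factors, had a median of 0.06 over 12, with Hspa8 at 8.89 and 9.25 (0.36). Hspa1a was at 4.42 and 4.87 (0.45), with WT under the filter and KO at least 1.14-fold higher against it. Its probes may not be told apart from those of its near-identical copy Hspa1b, which was at 5.97 and 6.22 (0.24). No gene of these 4 lists was past 1.5-fold.

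The cell make-up of the samples bears on any of these values, since in bulk tissue fewer cells of a type and less RNA per cell cannot be told apart. Hepatocyte markers were near equal, with a median of -0.01 over 11 genes and a range of -0.17 to 0.10. Markers of sinusoidal endothelium were all lower in KO, 13 of 13 below 0 and 6 past 1.5-fold, with a median of -0.58 and a mean signal of 8.09 in WT and 7.52 in KO. Macrophage and Kupffer cell markers were lower as well, 15 of 15 below 0 and 3 past 1.5-fold, with a median of -0.47 and a mean signal of 7.12 and 6.67. Every marker of these lists passed the filter except the macrophage gene Itgam. Of all genes compared, 55.7% lay below 0 and 2.45% were lower by at least 1.5-fold. Of the stellate cell markers, 8 of 11 lay below 0, the lowest being Lrat at -0.52. Those above 0 were Col1a1 at 0.22, Colec11 at 0.04 and Des, which passed only through the KO array, at 4.68 against 3.75 in WT. The lower values of Xbp1, Eif2ak3, Ppp1r15a, Chac1, Phgdh and Trib3 stood beside these, and the part of these cells in them was not tested.

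Plasma cells and pancreatic acinar cells are rich in ER genes. Of 8 measured markers of B and plasma cells, 7 were below the filter on both arrays, among them the plasma cell genes Mzb1, at 4.35 in WT and 4.27 in KO, and Jchain, at 3.34 and 3.06. Sdc1, which hepatocytes also express, was at 6.07 and 6.32 (0.25). Of 8 acinar markers, 3 passed the filter. Ctrb1 was at 4.69 and 5.38 (0.70), past 1.5-fold with WT just above the filter. Try4 was at 6.27 and 6.56 (0.28), and Cela1 was lower in KO at 5.12 and 4.95 (-0.17). The part of acinar cells in the ER genes was not tested. None of 11 T and NK cell markers passed, and 1 of 11 neutrophil markers did, Csf3r at 0.16. Cholangiocyte markers had 2 of 7 above the filter, both at -0.17, and adipocyte markers had 3 of 7, between -0.25 and 0.18.

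**Figure D4:**
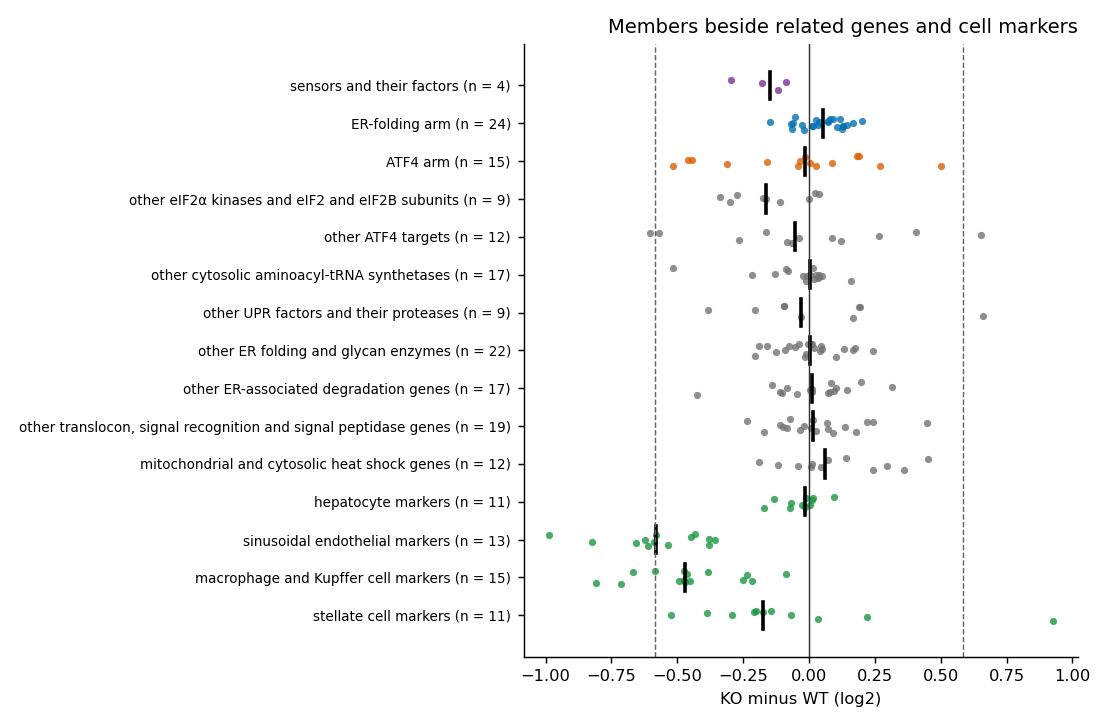
KO minus WT difference on the log2 scale for the 3 groups of members, for 8 lists of related genes (grey) and for the 4 marker lists with at least 9 genes above the filter (green); each dot is a gene, n counts genes, black bars are medians and dashed lines mark 1.5-fold. The ER-folding genes sit tightly around a median of 0.05 and the ATF4 genes spread to both sides of a median of -0.01 whose sign turns with the scaling, while the endothelial and macrophage markers lie wholly below 0; the stellate marker far to the right is Des, whose WT value is under the filter.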

How the data were processed

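The table deposited by the authors holds 1 log2 value per probe set and array for 41345 probe sets. Per the submitters' processing notes, it was made with RMA in Affymetrix Expression Console 1.3.0, which corrects background, equalises the arrays' distributions and condenses the probes of a set; a shift common to all RNA would be lost, and differences of dim probe sets are compressed. The genome build used was not given in the sources used here. Detection calls were not used, and the number of arrays limits precision.

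The platform annotation gave 23521 probe sets a single symbol, and only these were named. A gene's value was the mean log2 value of its probe sets, and the comparison was KO minus WT with a filter of 4.68 on the higher array. Listed symbols were matched as spelled or by gene identifier through RefSeq (GRCm38.p6). With 1 array per genotype there was no test and no p-value; words such as higher and lower describe the arrays. Members, roles and lists were chosen with earlier results of these data known. Genes named with their values are all members, and from each related list those past 1.5-fold or otherwise the 2 with the largest difference; further genes of these lists were chosen after their values were seen. The counting step was tested on simulated data. Alternatives were other fold thresholds (1.3 and 2), the brightest probe set per gene, centring on the median difference, a second quantile normalization, removal of a loess trend (span 0.4), no filter or a stricter one at the 75th percentile, list means, and the sensors counted as folding genes; exact symbols, a filter on the mean signal and values under the filter set to the filter were added after seeing the data. Python 3.11.15, pandas 2.3.3, numpy 2.4.6 and statsmodels 0.14.6 were used.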

Additional observations from a re-analysis of the deposited data

How the results depend on the processing

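The median of the ER-folding genes stayed above 0 under every alternative run, between 0.03 with the sensors counted among them and 0.08 after subtraction of the median difference, and its distance to the median of the ATF4 genes stayed between 0.03 and 0.09. The median of the ATF4 genes, -0.01, has no firm sign: it was 0.027 with the filter at the 75th percentile, which left 5 of its genes, 0.012 after the loess fit, 0.020 after quantile normalization again and 0.011 after subtraction of the median difference, which was -0.02 over all genes. No member passed 1.5-fold under the other scalings. At 1.3-fold 1 of 43 members was higher (Asns) and 3 were lower (Ppp1r15a, Chac1 and Phgdh). Of the 11090 genes compared, 538 were higher and 851 lower by that much. Against the filter, the bounds of Asns (1.05-fold) and Phgdh (1.19-fold) fell short of 1.3-fold. Without a filter 1 member was higher at 1.5-fold (Mthfd2). Over all genes, 572 were higher and 576 lower without a filter, 18 and 61 with the filter at the 75th percentile, 97 and 202 with the filter on the mean signal, and 78 and 181 with values under the filter set to it, against 163 and 272. Of the 46 members, 2 changed sign under each of the 3 scalings, from differences between -0.03 and 0.01, and Derl2 and Edem1 did with the brightest probe set. The 4 sensor genes stayed below 0 in all alternatives that kept them. The difference of Iah1 stayed between -4.69 and -4.65, and was -3.91 with the KO value set to the filter, which also brought Asns to 0.067. No paired analysis was possible because each genotype has 1 array.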
